A study of Mus musculus with 12 samples.

Results

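The NMDA receptor is encoded by 7 genes, Grin1, Grin2a, Grin2b, Grin2c, Grin2d, Grin3a and Grin3b, and all 7 were found by their symbols among the 24100 genes counted in entorhinal cortex (EC) neurons in culture. RNA was sequenced from primary neurons of C57BL/6J mouse embryos of day 17, and Dek, which codes for a chromatin-binding nuclear protein, was silenced or overexpressed with adeno-associated viruses (AAVs) to ask how its level bears on gene expression in these neurons. Every culture received a virus after 7 days in vitro, at 1e+10 virus genomes per ml, and was collected 4 days later, so no group was free of virus. Each of the 4 groups had 3 libraries, 12 in all.

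Dek-silenced neurons carried AAV1-mCherry-U6-mDEK-shRNA and their controls AAV1-mCherry-U6-scrmb-shRNA, a scrambled hairpin. Dek-overexpressing neurons carried AAV1-hSyn1-mDEK-IRES-mCherry and their controls AAV1-hSyn1-mCherry-WPRE, an empty vector. All 4 viruses express mCherry. The U6 promoter drives a hairpin in any cell that takes up the virus, whereas hSyn1 is largely active in neurons, so the 2 controls differ in promoter and in cargo. Sample titles put the silenced and scrambled libraries under DEK silencing, and the Dek cDNA and empty vector libraries under DEK overexpression. A comparison across these sets cannot tell the virus from the set. The titles do not say what else sets them apart. The labels do not say whether the wells of a group shared a dissection, and the p-values then measure the spread between wells. Totals were 15679567 to 18933382 estimated counts per library, and libraries of a group correlated at 0.989 to 0.997 on the log2 scale. Markers of neurons, summed over 7 genes, stood at 6140 to 7366 CPM (a normalised count, scaled by library total and TMM factor) in every library, while those of microglia stood at 3.32 to 12.3 CPM and those of endothelium at 0.817 to 2.35 CPM.

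NMDA receptors are glutamate-gated channels that pass calcium once depolarisation lifts the magnesium block of the pore. Each combines the obligatory GluN1 subunit, the product of Grin1, which binds glycine or D-serine, with GluN2 subunits, which bind glutamate, or with GluN3 subunits, which bind glycine and lower calcium entry and magnesium sensitivity. In the forebrain GluN2B and GluN3A are known as juvenile subunits, GluN2A as one that rises with maturation, GluN2C as a cerebellar subunit and GluN2D as one of early development and of interneurons.

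The silencing virus works through a short RNA, so the letters that such an RNA could pair with were looked up in the 3′ UTRs of the members. The match to bases 2 to 8 of the Dek hairpin's guide strand, AGGATCT, was in the longest annotated 3′ UTR of 9.69% of 20070 genes and of none of the 7 members. The match to its bases 5 to 11, AAGAGGA, a register chosen after earlier results of these data were known, was in 14.9% of the genes and in Grin2a, Grin2b and Grin3a. The sites are shown because they are the places where the silencing hairpin and the members share letters. Capitals mark the heptamer, all sites lie on the minus strand of GRCm38, and each is written 5′ to 3′ as in the transcript.
Grin2a, chr16:9577715-9577741: tactaggaggAAGAGGAtatagggagg
Grin2b, first site, chr6:135731827-135731853: ctgttcccatAAGAGGAtagaacgggc
Grin2b, middle site, chr6:135720091-135720117: catgcatgggAAGAGGAagtgaggcca
Grin2b, last site, chr6:135719753-135719779: ttagaatggaAAGAGGAttcgtaggac
Grin3a, chr4:49662334-49662360: tatttgccacAAGAGGAgagtatccct

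These genes have long 3′ UTRs, of 9929 bases in Grin2a, 18865 in Grin2b and 3615 in Grin3a, against a median of 996 over all genes with one. The 3′ UTR of Grin1, of 1187 bases, held neither heptamer. For the scrambled hairpin, the match to bases 2 to 8 of its guide, AGCACCA, was present once in Grin2a and once in Grin2b and in 10.2% of genes, and the match to bases 5 to 11, AAGAGCA, was present in Grin2b alone among the members, at 2 places, and in 15.4% of genes.
Grin2a, chr16:9576515-9576541, scrambled hairpin: cctcttgcccAGCACCAacagaaacca
Grin2b, chr6:135723190-135723216, scrambled hairpin: aggagagtgtAGCACCActggcctgat

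A shared heptamer is a description of letters and not of a site in use. As the values below show, Grin2a was higher, Grin3a lower and Grin2b close to its control in Dek-silenced neurons, and all 3 carry AAGAGGA. Whether these matches play a part in any difference was not tested.

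Dek itself, which checks the labels, was at 7.98, 6.64 and 8.61 CPM in Dek-silenced libraries and at 35.2, 36.6 and 36.3 CPM with the scrambled hairpin. It was at 156, 129 and 143 CPM with the Dek cDNA and at 36.0, 38.8 and 41.1 CPM with the empty vector. Each perturbed group was apart from its control (log2FC = −2.23, SE 0.10, adjusted p = 1.31e-08 for silencing, and log2FC = 1.89, SE 0.08, adjusted p = 1.357e-08 for overexpression, edgeR's quasi-likelihood test with Benjamini-Hochberg adjustment over all genes tested). Dek did not pass the test between the 2 controls (log2FC = −0.10, SE 0.07, adjusted p = 0.23).

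**Figure D1:**
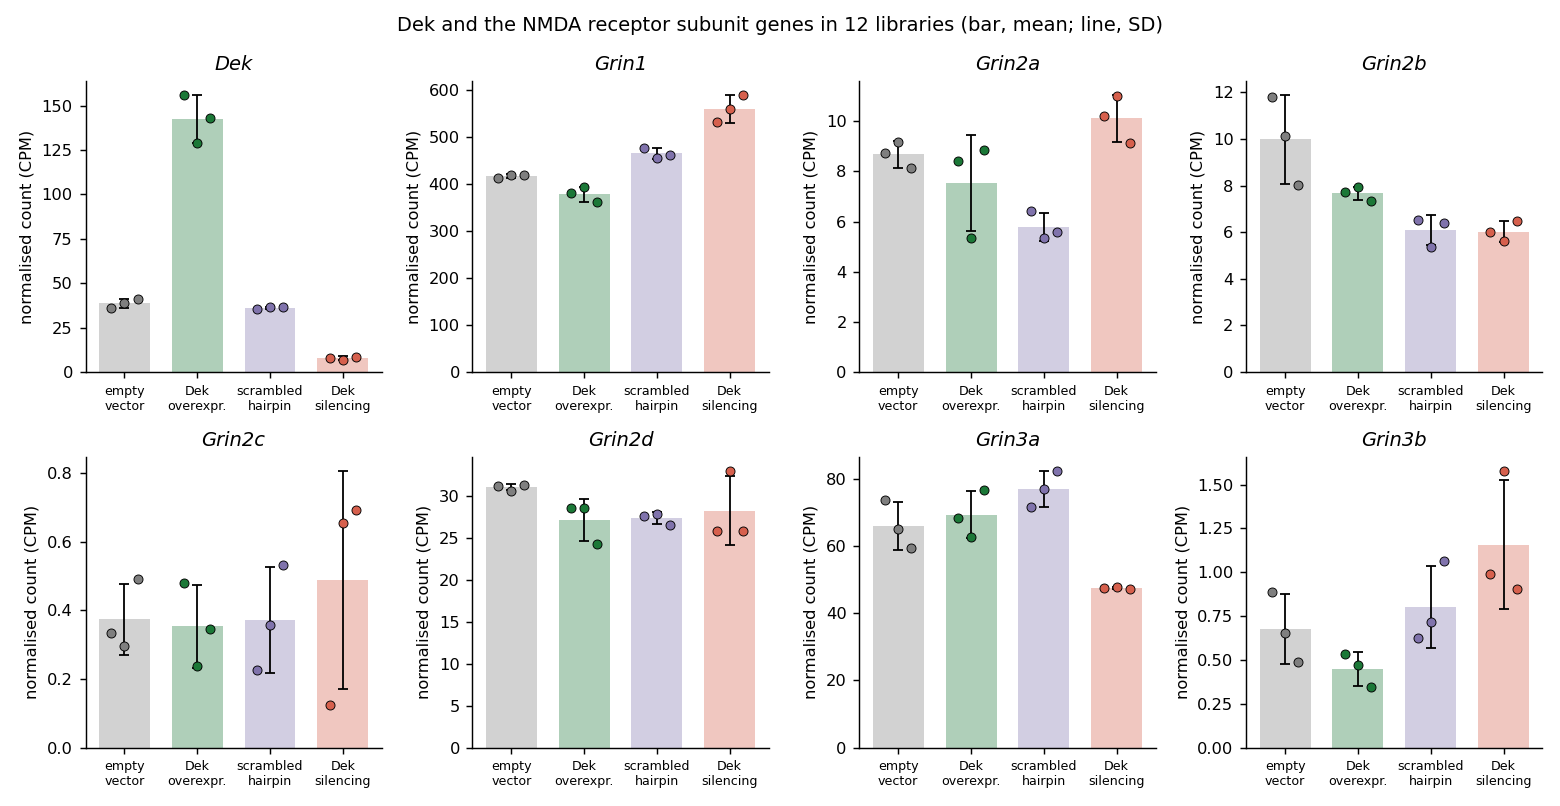
Normalised counts in CPM of Dek and the 7 subunit genes in the 12 libraries, one panel per gene with its own axis, groups on the horizontal axis, points for libraries, bars for means and lines for SD (n = 3). Grin1 was highest in Dek-silenced neurons (560 CPM), and the 3 Dek-silenced libraries had the lowest Grin3a values, 47.1 to 47.7 CPM.

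Grin1 was by far the most abundant member. Per kilobase of transcript, with lengths averaged over annotated transcripts, its level was 113 CPM per kb over the 12 libraries, against 8.70 for Grin3a, 7.30 for Grin2d, 1.24 for Grin2b, 1.00 for Grin2a, 0.378 for Grin3b and 0.0866 for Grin2c. Grin1 thus stood 13.0-fold above Grin3a and 90.9-fold above Grin2b on this scale, and its mean CPM exceeded that of 98% of the genes kept for testing. The order of Grin2a and Grin2b rested on the transcript length used: with the longest transcript in place of the mean, Grin2a was at 0.548 and Grin2b at 0.309 CPM per kb, the reverse of the order above. The transcript models behind the estimated counts are not given in the sources used here, and reads of a 3′ UTR that a model lacks are not counted.

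Neighbours in that order were close in some groups. Grin3a stood above Grin2d with the scrambled hairpin, at 10.3 ± 0.73 against 7.02 ± 0.19 CPM per kb (mean ± SD, n = 3), whereas in Dek-silenced neurons Grin3a was at 6.35 ± 0.04 and Grin2d at 7.25 ± 1.06 CPM per kb, a gap smaller than the SD of Grin2d. With the empty vector the gap between Grin3a, at 8.85 ± 0.95, and Grin2d, at 7.96 ± 0.09 CPM per kb, was also within the SD. Using the longest transcript, Grin3a stood above Grin2d in Dek-silenced neurons too, at 6.33 against 5.20 CPM per kb.

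To see how silencing Dek bears on the receptor, Dek-silenced neurons were compared with those that received the scrambled hairpin. Grin1 and Grin2a rose, Grin3a fell, and Grin2b, Grin2d and Grin3b did not pass the test. Thus 3 of the 6 members tested were called at an adjusted p below 0.05, 2 higher and 1 lower. Silencing moved much of the transcriptome: 54.7% of the 14232 genes tested were called, 26.2% higher and 28.5% lower, so the members' share was close to that of all genes. Over all genes 3730 were higher and 4060 lower, and 4790 and 3211 when libraries were scaled by their totals alone, while the same 3 members were called in the same directions. Grin2c was not tested, since its counts were below the filter.

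Grin1, which encodes the subunit that every NMDA receptor needs, lies at chr2:25291181-25319187 (GRCm38, minus strand). It was at 532, 559 and 590 CPM in Dek-silenced libraries and at 478, 457 and 462 CPM with the scrambled hairpin. All 3 silenced libraries were above all 3 controls, and the increase was small (log2FC = 0.25, SE 0.05, adjusted p = 0.00157 with edgeR), 1.19-fold. The antisense gene Grin1os lies within Grin1, and since the sources do not say whether counting used strand, their reads cannot be told apart there. Grin1os was at 2.47 to 4.50 CPM over all libraries and did not pass the test (log2FC = −0.15, SE 0.18, adjusted p = 0.502).

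Among the GluN2 genes, Grin2a changed most. Grin2a (chr16:9567898-9995560, minus strand) was at 10.2, 11 and 9.14 CPM in Dek-silenced libraries and at 6.41, 5.36 and 5.56 CPM with the scrambled hairpin, from 90 to 202 counts per library. The groups did not overlap, and Grin2a was 1.73-fold higher (log2FC = 0.79, SE 0.14, adjusted p = 0.0003935 with edgeR). Grin2b (chr6:135713233-136173511, minus strand), the partner of GluN1 in most immature forebrain receptors, was at 6.0, 5.61 and 6.49 CPM in Dek-silenced libraries and between 5.36 and 6.52 CPM with the scrambled hairpin. The groups overlapped, and the difference was smaller than its standard error (log2FC = −0.03, SE 0.15, adjusted p = 0.885 with edgeR).

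Grin2d (chr7:45831883-45878378, minus strand) was at 25.8, 33.0 and 25.8 CPM in Dek-silenced libraries, and its 3 scrambled libraries lay between 26.5 and 27.9 CPM. Replicate 2 stood above every scrambled library and the other 2 silenced libraries stood below, and Grin2d did not pass the test (log2FC = 0.03, SE 0.10, adjusted p = 0.806 with edgeR). Without replicate 2 of the silenced group the value was −0.10. The span of Grin2d overlaps Kdelr1 on the opposite strand. Grin2c (chr11:115249169-115267243, minus strand) had 2 to 13 counts per library, or 0.124 to 0.691 CPM, in all 4 groups, and a difference in it was not detectable at this depth.

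Grin3a, the gene of the juvenile glycine-binding subunit GluN3A, lies at chr4:49661611-49845744 (minus strand) and was the only tested member that fell. It was at 47.4, 47.7 and 47.1 CPM in Dek-silenced libraries and at 71.5, 76.8 and 82.4 CPM with the scrambled hairpin. The highest silenced library was well below the lowest control, and Grin3a fell by 39.0% (log2FC = −0.71, SE 0.07, adjusted p = 3.075e-06 with edgeR). Ppp3r2 lies within Grin3a on the same strand. Grin3b (chr10:79970715-79977190, plus strand), known mostly from motor neurons, had 6 to 29 counts per library and overlaps Tmem259 on the opposite strand. It was at 0.989, 1.58 and 0.904 CPM in Dek-silenced libraries and at 0.624, 0.714 and 1.07 CPM with the scrambled hairpin, and the overlapping groups did not pass the test (log2FC = 0.52, SE 0.36, adjusted p = 0.238 with edgeR).

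**Figure D2:**
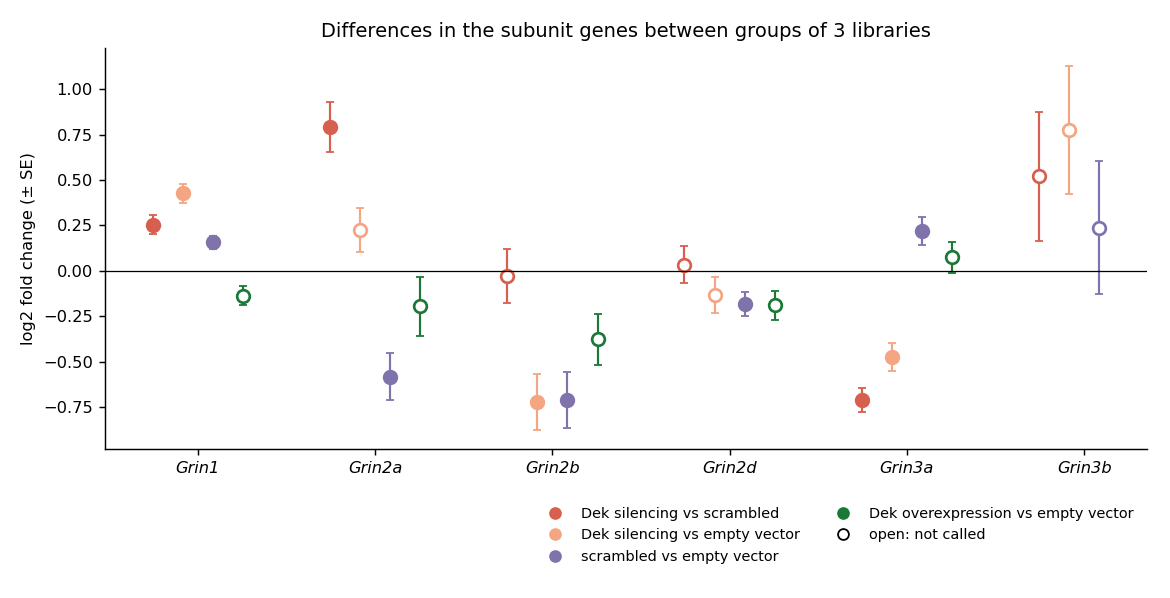
Log2 fold changes with standard errors of the 6 tested subunit genes in the 4 comparisons between groups of 3 libraries, filled where the adjusted p was below 0.05 and open where it was not. Grin1 was above 0 and Grin3a below 0 for Dek silencing against either control, whereas Grin2a at 0.79 against the scrambled hairpin was at 0.22 against the empty vector. Grin2c was not tested, and Grin3b was not tested for overexpression.

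The controls themselves differed, and the members were compared between them before the silenced neurons were set against the empty vector. Both comparisons cross the titles' silencing and overexpression sets, so virus and set cannot be told apart. With the scrambled hairpin Grin1 and Grin3a were higher and Grin2a, Grin2b and Grin2d lower than with the empty vector, 5 of 6 members tested, where 43.1% of 14096 genes were called, 21.3% higher and 21.8% lower. Grin2a was at 8.71, 9.18 and 8.13 CPM with the empty vector, above every scrambled library (log2FC = −0.58, SE 0.13, adjusted p = 0.00259 with edgeR). Grin2b was at 11.8, 10.1 and 8.02 CPM with the empty vector and so was also above every scrambled library (log2FC = −0.71, SE 0.15, adjusted p = 0.00225 with edgeR).

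Grin1 was at 413, 420 and 419 CPM with the empty vector, below every scrambled library (log2FC = 0.16, SE 0.04, adjusted p = 0.00357 with edgeR). Grin2d was at 31.2, 30.6 and 31.2 CPM with the empty vector (log2FC = −0.18, SE 0.06, adjusted p = 0.0333 with edgeR), and Grin3a was at 73.5, 65.0 and 59.4 CPM, overlapping the scrambled libraries (log2FC = 0.22, SE 0.08, adjusted p = 0.0423 with edgeR). These last 2 calls were the least stable. Leaving out scrambled replicate 2 or 3 or empty vector replicate 2 or 3 ended both, and leaving out empty vector replicate 1 ended that of Grin2d, so the count of members called fell from 5 to as few as 3. Both were also lost with the replicate number as a block, and that of Grin3a with scaling by library totals alone (adjusted p = 0.0502). That of Grin2d was lost with DESeq2's Wald test (adjusted p = 0.114), and in edgeR with no filter on low counts (adjusted p = 0.0507), with all 12 libraries in 1 fit (adjusted p = 0.135) and with offsets for the GC content and length of transcripts (adjusted p = 0.0858). The call of Grin2a was lost with these offsets too (log2FC = −0.28, adjusted p = 0.111 with edgeR).

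Markers of cell types moved along with this difference between the controls. Summed over 6 excitatory genes, markers stood at 296 to 343 CPM with the scrambled hairpin and at 487 to 519 CPM with the empty vector. Those of GABAergic neurons, over 7 genes, stood at 2604 to 2802 and at 2283 to 2338 CPM. Of the 6 excitatory genes 4 were lower and none higher with the scrambled hairpin, and of the 7 GABAergic genes 5 were higher and 1 lower. No defining gene of either list was at 0. In bulk RNA, fewer cells of a type and less RNA per cell cannot be told apart, and the part of these markers in the members' values was not tested.

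Against the empty vector, Dek-silenced neurons had higher Grin1 and lower Grin2b and Grin3a. In this comparison, which shares its silenced libraries with the first and its control with the one just given, 67.4% of 14292 genes were called, 34.0% higher and 33.5% lower, beside 3 of 6 members. Grin1 was 1.34-fold higher (log2FC = 0.43, SE 0.05, adjusted p = 1.314e-05 with edgeR). Grin3a fell by 28.1% (log2FC = −0.48, SE 0.08, adjusted p = 0.0001277 with edgeR), and again no silenced library reached a control. Grin2b, which did not differ detectably between the 2 hairpins, was lower here (log2FC = −0.72, SE 0.15, adjusted p = 0.00115 with edgeR).

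Grin2a was not called against the empty vector (log2FC = 0.22, SE 0.12, adjusted p = 0.116 with edgeR). The empty vector libraries, at 8.13 to 9.18 CPM, lay above every scrambled library and overlapped the silenced ones, which were at 9.14 to 11 CPM. Grin3b was at 0.888, 0.652 and 0.491 CPM with the empty vector, below every silenced library, and did not pass the test (log2FC = 0.78, SE 0.35, adjusted p = 0.0674 with edgeR). Grin2d did not pass either (log2FC = −0.13, SE 0.10, adjusted p = 0.246 with edgeR), and without silencing replicate 2 it did (−0.28, adjusted p = 0.0122). With offsets for GC content and transcript length, Grin2a was then called higher (0.67), Grin2d was called lower (−0.26), and the calls of Grin2b (−0.33) and Grin3a (−0.04) were lost. The direction for Grin3a against the scrambled hairpin did not rest on this setting, where the log2FC was −0.55 and the call was kept.

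To see whether raising Dek moves the receptor the other way, Dek-overexpressing neurons were compared with those that received the empty vector. No member was called among the 5 tested, and over all genes only Dek was called, 0.00710% of 14089. At an unadjusted p below 0.05, Grin1, Grin2b and Grin2d were lower, 3 of 5 members where 6.60% of all genes passed. DESeq2's Wald test and limma-voom called none of the members either.

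Grin1 was at 380, 394 and 362 CPM with the Dek cDNA, below every empty vector library (log2FC = −0.14, SE 0.05, adjusted p = 0.688 with edgeR). Grin2b was at 7.71, 7.93 and 7.35 CPM, also below every library of its control (log2FC = −0.38, SE 0.14, adjusted p = 0.688 with edgeR). Grin2d was at 28.5, 28.5 and 24.2 CPM (log2FC = −0.19, SE 0.08, adjusted p = 0.714 with edgeR). These differences did not survive the adjustment over all genes. Grin2a was spread widely, at 8.41, 5.33 and 8.84 CPM (log2FC = −0.20, SE 0.16, adjusted p = 0.872 with edgeR), and Grin3a, at 68.4, 62.7 and 76.7 CPM, overlapped its control (log2FC = 0.07, SE 0.09, adjusted p = 0.916 with edgeR). Grin3b had 6 to 10 counts per library and was not tested.

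The difference between the 2 responses was tested directly, in a fit of all 12 libraries. Grin1, Grin2a and Grin3a responded differently to silencing and to overexpression, 3 of 6 members tested, where 43.0% of 14604 genes did, 2972 higher and 3315 lower, or 3753 and 2734 when scaled by library totals alone. The response of Grin1 to silencing exceeded that to overexpression by 0.41 on the log2 scale (SE 0.07, adjusted p = 0.0001531 with edgeR) and that of Grin2a by 1.01 (SE 0.22, adjusted p = 0.00143 with edgeR). For Grin3a the response to silencing was lower, by a log2 difference of −0.77 (SE 0.12, adjusted p = 3.783e-05 with edgeR). For Grin2b (0.37, SE 0.21, adjusted p = 0.163), Grin2d (0.24, SE 0.13, adjusted p = 0.152) and Grin3b (1.11, SE 0.53, adjusted p = 0.101) no difference was shown by edgeR.

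**Figure D3:**
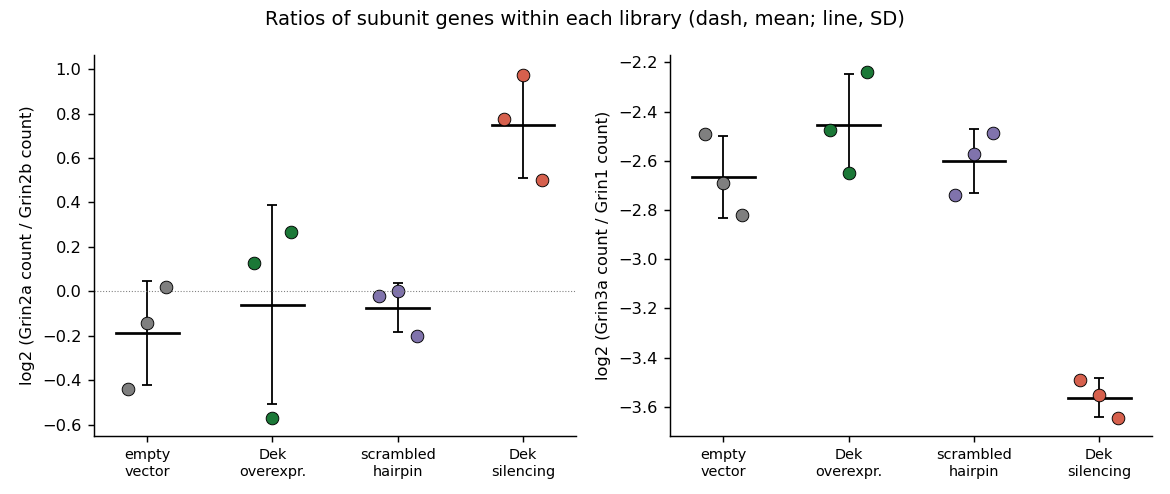
Log2 ratios of estimated counts within each library, Grin2a to Grin2b on the left and Grin3a to Grin1 on the right, by group, with points for libraries, dashes for means and lines for SD (n = 3). The 3 Dek-silenced libraries lay above the other 9 for Grin2a to Grin2b, at 0.50 to 0.97, and below the other 9 for Grin3a to Grin1, at −3.65 to −3.49.

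Ratios within a library do not depend on the scaling between libraries, and 3 pairs were taken. Grin2a and Grin2d, whose products bind glutamate as that of Grin2b does, were each set against Grin2b, and Grin3a against Grin1. They are given as descriptions, without a test. The log2 ratio of Grin2a to Grin2b counts was 0.77, 0.97 and 0.50 in Dek-silenced libraries, −0.02, 0.00 and −0.20 with the scrambled hairpin, 0.13, −0.57 and 0.27 with the Dek cDNA and −0.44, −0.14 and 0.02 with the empty vector. The 3 silenced libraries were the highest of the 12. Against the scrambled hairpin it was Grin2a that was higher, and against the empty vector Grin2b that was lower. The log2 ratio of Grin2d to Grin2b overlapped between the hairpins, at 2.00 to 2.56 in Dek-silenced and 2.05 to 2.38 in scrambled libraries. It was at 1.72 to 1.89 with the Dek cDNA and at 1.40 to 1.96 with the empty vector.

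The log2 ratio of Grin3a to Grin1 was −3.56 ± 0.08 in Dek-silenced libraries, −2.60 ± 0.13 with the scrambled hairpin, −2.45 ± 0.21 with the Dek cDNA and −2.67 ± 0.17 with the empty vector (mean ± SD, n = 3). It was thus lowest in the silenced neurons, with no overlap, while the other 3 groups overlapped. Of all GluN2 counts, Grin2a made up 22.6% ± 1.40 in Dek-silenced neurons and 14.6% ± 1.01 with the scrambled hairpin, 17.7% ± 4.58 with the Dek cDNA and 17.3% ± 0.83 with the empty vector (SD, n = 3). The share of Grin2d in these counts ranged from 59.4% to 71.6% over the libraries, and these shares are of counts and not per length.

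The genes whose levels followed each member most closely were named as a description over the 12 libraries, which fall into 4 groups that differ widely, among 11018 genes with a mean of at least 5 CPM. For Grin1 they were Clptm1 (r = 0.992), Wdr18 (0.988) and Lrrc24 (0.985), and for Grin3a Tmem132b (0.983), Pik3r3 (0.982) and Fam13b (0.971). For Grin2a they were Prkaa2 (0.956), Atp2a2 (0.938) and E2f3 (0.937), and for Grin2b Lpar2 (0.902), Tet3 (0.893) and Lrrc8c (0.888). Grin2d was followed less closely, by Caskin1 (0.856), Atat1 (0.851) and Apc2 (0.810), and the sparse Grin3b by Traf3 (0.947), Oplah (0.917) and Sft2d1 (0.913). No member was among the nearest genes of another. Between members, r ranged from 0.793 for Grin1 and Grin3b to −0.69 for Grin1 and Grin3a.

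Proteins that hold, modify and serve the receptor were counted next, from 6 lists of 91 genes in all, 90 of them tested. Against the scrambled hairpin, 23 were higher and 34 lower in Dek-silenced neurons, 63.3% of those tested beside the 54.7% of all genes, with a median log2FC of −0.04 where that of all genes was 0.00. Against the empty vector 24 were higher and 48 lower, 80% of those tested beside 67.4% of all genes, which were 34.0% higher and 33.5% lower. Between the controls 10 were higher and 43 lower with the scrambled hairpin, 58.9% beside 43.1% of all genes, which were 21.3% higher and 21.8% lower. None was called for overexpression.

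**Figure D4:**
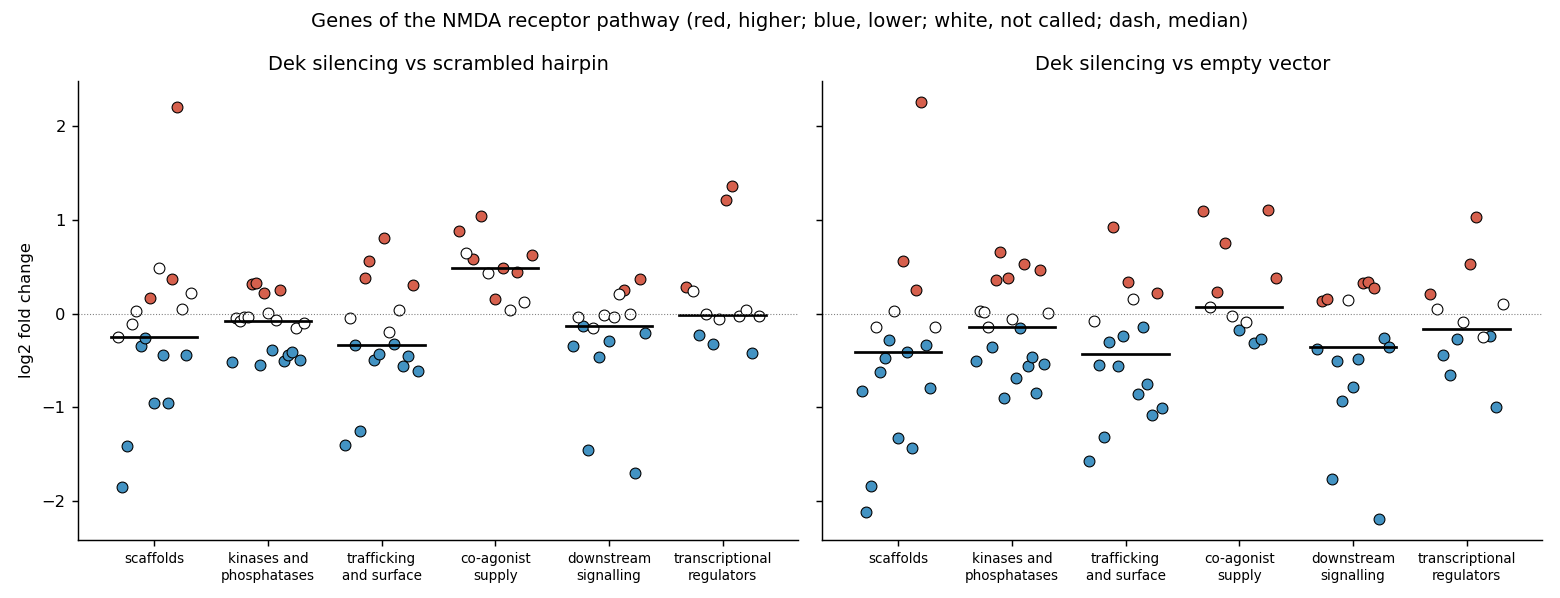
Log2 fold changes of the tested genes of 6 lists of the NMDA receptor pathway in Dek-silenced neurons against the scrambled hairpin (left) and the empty vector (right), red where called higher, blue where called lower and white where not called, with a dash at the median of each list. Of 11 co-agonist genes 7 were higher and 0 lower on the left, and 5 higher and 3 lower on the right. Homer3 is the highest point in both panels.

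Of the 17 scaffolds that sit beneath the receptor, 3 were higher and 8 lower against the scrambled hairpin (median log2FC −0.25). Homer3, which links Shank scaffolds to metabotropic glutamate receptors, was at 58.9 ± 5.63 CPM in Dek-silenced and 12.6 ± 1.03 CPM in scrambled libraries (log2FC = 2.21, SE 0.10, adjusted p = 1.025e-08 with edgeR), and Homer2 rose by 0.37. Akap5, which anchors protein kinase A and calcineurin near the receptor, was at 16.8 ± 1.79 against 60.3 ± 3.04 CPM (log2FC = −1.86, SE 0.09, adjusted p = 1.581e-08 with edgeR). Akap9, whose product yotiao binds GluN1, was lower as well (log2FC = −1.41, SE 0.07). Dlg4, the gene of PSD-95, which binds the tails of GluN2 subunits, was lower by a smaller amount (log2FC = −0.26, SE 0.05, adjusted p = 0.0007688 with edgeR) and was named after its value was seen. Against the empty vector Homer3 was at 2.26, Akap5 at −2.12 and Akap9 at −1.84.

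Of 19 kinase and phosphatase genes that act on the receptor's tails, 4 were higher and 7 lower (median log2FC −0.08). Csnk2b, the regulatory subunit of casein kinase 2, which phosphorylates GluN2B (log2FC = 0.33, SE 0.06), and Prkaca, which encodes the alpha catalytic chain of cAMP-dependent kinase (0.25, SE 0.05), rose. Prkacb, which encodes the beta chain of the same enzyme (−0.51, SE 0.05), and Prkca, a protein kinase C (−0.44, SE 0.05), fell. All 4 were called in the same directions against the empty vector, and Csnk2b and Prkaca were also higher with the scrambled hairpin than with the empty vector.

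Of 16 genes of receptor traffic and its surface partners, 4 were higher and 9 lower (median log2FC −0.33). Lin7a, part of the complex that couples GluN2B cargo to its kinesin motor, rose (log2FC = 0.80, SE 0.07), as did Gipc1, a PDZ adaptor that binds GluN2B (0.56, SE 0.08). Adam22, the synaptic receptor of the secreted protein LGI1, was at 73.8 ± 7.03 against 194 ± 3.08 CPM (log2FC = −1.41, SE 0.07), and Snx27, a sorting nexin of recycling, fell too (−0.61, SE 0.06). Against the empty vector Lin7a was at 0.34, Gipc1 at 0.92, Adam22 at −1.58 and Snx27 at −1.01, all called.

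The list of genes that make, break down or carry the glycine-site co-agonists and related amino acids moved in 1 direction against the scrambled hairpin. Of the 11 tested genes 7 were higher and none lower (median log2FC 0.48). Carriers and enzymes were both among the 7, so the count does not give a direction of supply. Srr, serine racemase, which makes D-serine, was at 205 ± 18.1 CPM in Dek-silenced and 131 ± 3.21 CPM in scrambled libraries (log2FC = 0.63, SE 0.06, adjusted p = 6.691e-06 with edgeR). Phgdh, the enzyme that opens the synthesis of L-serine, was at 102 ± 6.59 against 54.4 ± 7.97 CPM (log2FC = 0.89, SE 0.10, adjusted p = 5.334e-05 with edgeR). Against the empty vector, where Srr was at 0.38 and Phgdh at 1.10, both called, the list's median was 0.07, with 5 genes higher and 3 lower. With the scrambled hairpin 5 of these genes were lower and 1 higher than with the empty vector. Several of these genes are also used by astrocytes, whose 8 markers summed to 489 to 834 CPM in Dek-silenced and 519 to 800 CPM in scrambled libraries, with none called. With the empty vector they summed to 424 to 550 CPM, and 2 of the 8 were higher and none lower in Dek-silenced neurons (median log2FC 0.73), as were 2 with the scrambled hairpin (median log2FC 0.63). The part of such cells was not tested.

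Of 15 genes of signalling downstream of the channel, 2 were higher and 7 lower (median log2FC −0.13). Nsmf, which carries signals from the receptor to the nucleus, rose (log2FC = 0.25, SE 0.05). Rasgrf2, a calcium-dependent Ras exchange factor, was at 17.7 ± 2.06 against 57.3 ± 6.72 CPM (log2FC = −1.71, SE 0.11), and Camk4 at 38 ± 2.84 against 103 ± 13.1 CPM (log2FC = −1.46, SE 0.10).

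Of 12 transcriptional regulators that have been tied to Grin genes, 3 were higher and 3 lower (median log2FC −0.01). Rest, the repressor of neuronal genes in other cells, was low throughout and higher in Dek-silenced neurons, at 2.39 to 3.87 CPM against 0.964 to 1.37 CPM with the scrambled hairpin (log2FC = 1.36, SE 0.26, adjusted p = 0.0009317 with edgeR). Its corepressor Rcor1 was higher too (1.21, SE 0.12). Sp4, a GC-box factor of neurons (−0.42, SE 0.09), and Mef2d, an activity-regulated factor (−0.32, SE 0.06), were lower. All 4 were called in the same directions against the empty vector, at 1.03, 0.53, −0.997 and −0.27.

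Markers of glia of the oligodendrocyte lineage differed beside these results. Summed over 5 oligodendrocyte genes they stood at 82.4 to 89.8 CPM in Dek-silenced and 30.8 to 41.2 CPM in scrambled libraries, 4 of the 5 genes higher and 1, Mog, lower. Summed over 5 genes of their precursors they stood at 92.4 to 199 and at 62.2 to 110 CPM, 3 higher (Pdgfra, Sox10 and Cspg4) and none lower. With the empty vector the sums were 44.5 to 45.6 and 52.0 to 82.4 CPM. Against it 3 oligodendrocyte genes were higher and 1 lower in Dek-silenced neurons, and 2 precursor genes (Olig1 and Olig2) were higher and none lower. Pdgfra, Sox10 and Cspg4 were not called there. Mbp, higher against the scrambled hairpin, was not called there either (log2FC −0.10). It was lower with the scrambled hairpin than with the empty vector (−1.40). None of these genes was at 0 in all libraries of a group. Excitatory markers overlapped in sum between Dek-silenced and scrambled libraries, at 314 to 343 and 296 to 343 CPM, and so did GABAergic ones, at 2484 to 2847 and 2604 to 2802 CPM. Single genes did differ. Of the 6 excitatory genes 1 was higher (Slc17a6, log2FC 0.62) and 1 lower (Neurod6, −0.81). Of the 7 GABAergic genes 1 was higher (Dlx1, 0.92) and 2 lower (Lhx6, −1.63, and Sst, −0.66). Markers of EC layer II neurons, over 3 genes, stood at 1333 to 1668 and 1317 to 1376 CPM with none called. Reln gave most of this sum. Against the empty vector Reln was higher in Dek-silenced neurons (log2FC 0.89), and Calb1 (−0.38) and Sh3bgrl2 (−0.70) were lower, all called. With the scrambled hairpin these genes were called in the same directions against the empty vector (0.67, −0.48 and −0.38). The part of these cells in the members' differences was not tested.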

How the data were processed

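Read totals per gene were deposited by the authors as estimated counts (expected counts), and the labels name Salmon, DESeq2 and mm10. The transcript models are not given in the sources used here. Of the values, 38.1% were not whole, and they were rounded. Each of the 12 libraries was made from 200 ng of RNA. edgeR (4.0.16, R 4.3.3) was run per comparison, on the 2 groups compared, with filterByExpr (minimum count 10, total 15), TMM factors, a robust quasi-likelihood F test and Benjamini-Hochberg adjustment over all genes tested. The response difference used all 12. Standard errors (SE) of edgeR values were worked back from the test, as the absolute log2FC divided by the square root of F. CPM are TMM-normalised over the 12 libraries, and log2 CPM used a prior count of 2. DESeq2 (1.42.0), limma-voom (limma 3.58.1), other scalings, filters, offsets for GC content and length, a replicate block and leaving out each library were alternatives. Scripts were tested on simulated data. Lengths, positions and 3′ UTRs came from GENCODE vM21 (GRCm38, the build called mm10), with a transcript for 23797 of the 24100 genes. Totals of 15679567 to 18933382 estimated counts per library leave Grin2c and Grin3b, with at most 13 and 29 counts, imprecise.

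The members and lists were chosen with earlier results of these data known. Named genes were the 7 members, Dek, up to 2 genes per direction and list with the smallest adjusted p against the scrambled hairpin, markers, and the 3 genes most like each member. The result of 1 gene that this rule names is not reported here. Same-numbered silenced and scrambled libraries deviated together (r = 0.465, 0.328 and 0.157, all above 0.1), with no label saying why. Silenced replicate 2 and scrambled replicate 3 did so as well (r = 0.331), so the values do not settle how replicates 2 and 3 pair. The numbers were used as pairs in the replicate block alone, and the main tests left them out. Promoter entries were not used here.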

Additional observations from a re-analysis of the deposited data

Results flagged for a closer look

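Grin1, Grin2a and Grin3a responded differently to silencing and to overexpression of Dek when each was set against its own control virus. The response to silencing minus that to overexpression was 0.41 for Grin1, 1.01 for Grin2a and −0.77 for Grin3a on the log2 scale, each past the threshold in a fit of all 12 libraries (edgeR's quasi-likelihood test), as were 43.0% of all genes tested. Grin1 was higher in 3 of 3 silenced libraries than in every scrambled library and lower in 3 of 3 overexpressing libraries than in every empty vector library. No member was called for overexpression by itself, and these 3 members are the ones already called for silencing against the scrambled hairpin. Over the 20 alternatives the difference ranged from 0.28 to 0.49 for Grin1, from 0.80 to 1.13 for Grin2a and from −0.86 to −0.66 for Grin3a, with the call kept in each. None of these alternatives changed which control each group was set against. Grin2a was lower with the scrambled hairpin than with the empty vector (log2FC = −0.58). Against the empty vector it was not called in Dek-silenced neurons (log2FC = 0.22, adjusted p = 0.116 with edgeR), whereas Grin1 and Grin3a were. With offsets for GC content and transcript length this turned for Grin2a (0.67, called) and Grin3a (−0.04, not called). Grin1 kept its call against the empty vector under all 15 alternatives. Groups held 3 libraries, too few to look for a library apart from its group.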

How the results depend on the processing

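Calls of Grin1, Grin2a and Grin3a for silencing against the scrambled hairpin were kept under all 15 alternatives (log2FC 0.21 to 0.35, 0.72 to 0.95 and −0.77 to −0.55), and no member was called for overexpression under any. Scaling by library size alone moved the median of all genes by 0.10 for silencing against the scrambled hairpin and turned the split of calls from 3730 higher and 4060 lower to 4790 and 3211. It also called 5 members rather than 3 for silencing against the empty vector, Grin2a and Grin3b besides, both higher. Over all genes this scaling called 5529 higher and 4239 lower there, rather than 4858 and 4781 of 14292, and the median log2FC was 0.094. Between the controls, 5 members were called, and 3 with the replicate block or with offsets for GC content and length; leaving out 1 library gave 3 to 5. The replicate block kept the silencing calls against the scrambled hairpin (3 members, 8620 genes against 7790). Beside the calls of Grin2d and Grin3a between the controls, this block ended or added no member's call. The numbers did not pair the other groups (r = 0.0171, −0.114 and 0.0435 for overexpression and empty vector). Directions that turned were all of values not called: Grin2b for silencing against the scrambled hairpin (0.0697 by library size, 0.0010 with at least 5 CPM, 0.11 with offsets, and 0.0201, 0.0197 and 0.0035 without silencing replicate 2, scrambled replicate 1 and scrambled replicate 3, over a range of −0.113 to 0.0201 with 1 library left out), Grin2d there (−0.0832 with offsets, −0.10 without silencing replicate 2) and in the response difference (−0.0469 with offsets), Grin3a for overexpression (−0.0050 without overexpression replicate 3, up to 0.154 without another) and Grin3b between the controls (−0.0180 without scrambled replicate 3, up to 0.486 without another). The causes were not tested. Depth limits Grin2c and Grin3b.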
